A study of Mus musculus with 2 samples.

Results

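The genes described here are the splicing regulators of the serine/arginine-rich (SR) and heterogeneous nuclear ribonucleoprotein (hnRNP) families and related factors. They were taken by their symbols in the deposited tables: the numbered *Srsf* and *Sfrs* genes, the *Hnrnp* and *Hnrp* genes, and the named factors *Tra2a*, *Tra2b*, *Esrp1*, *Esrp2*, *Mbnl1*, *Mbnl2*, *Mbnl3*, *Ptbp1*, *Ptbp2*, *Rbfox2* and *Son*. This gave 43 of 21935 gene symbols: 13 SR and Tra2 genes, 20 hnRNP genes and 10 other regulators. Of these 43 genes, 42 had an RPKM above 1 in at least 1 library, and the remaining gene was *Mbnl3*. Some symbols in the tables are older names: *Sfrs18*, *Srsf12*, *Hnrpdl* and *Hnrpll* correspond to *Pnisr*, *Srek1*, *Hnrnpdl* and *Hnrnpll* in the annotation used here.

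The study asked how depletion of KDM5B, a demethylase of lysine 4 of histone H3, affects embryonic stem (ES) cells. Both libraries came from R1 ES cells, a mouse line, grown for 72 h in medium that lacked the self-renewal factor LIF. For culture without LIF the paper names gelatin-coated or low-attachment dishes. shKdm5b cells carried a lentiviral short hairpin RNA (shRNA) against *Kdm5b*, and shLuc cells, the control, carried one against luciferase. Polyadenylated RNA was sequenced from each, with 1 library per condition, so no difference below has a replicate check, and library and condition cannot be told apart.

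SR proteins bind exonic enhancers through RNA recognition motifs and recruit the spliceosome through their arginine/serine-rich domains, which are switched by phosphorylation. hnRNP proteins coat nascent transcripts, and many of them silence exons or splice sites, so that the balance of both families sets which exons a cell includes. Many of these genes control their own level: their transcripts contain exons with early stop codons, which send the RNA to nonsense-mediated decay. The polypyrimidine tract proteins, the ESRP proteins, the muscleblind proteins and RBFOX2 direct splicing programs of neurons, epithelia and differentiating stem cells.

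Some of these genes have a pair of RefSeq entries that differ in 1 stretch, and the reads on that stretch could be counted apart. The following sequences are shown because they are the stretches behind those counts. They are from the GENCODE transcripts of GRCm38, written 5′ to 3′ on the strand of the gene. In the first 3, capitals mark the exon or part of an exon, and lower case marks the 30 bases on each side of it in the transcript, which for *Hnrnpm* belong to the same exon. The last pair show the end of the preceding exon (the first 30 bases) and then the start of an exon with an early stop codon, and capitals mark that stop codon.
Ptbp1: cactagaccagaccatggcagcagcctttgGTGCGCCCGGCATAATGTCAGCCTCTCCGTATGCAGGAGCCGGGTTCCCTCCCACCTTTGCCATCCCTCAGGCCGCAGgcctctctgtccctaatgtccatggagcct
Hnrnpab: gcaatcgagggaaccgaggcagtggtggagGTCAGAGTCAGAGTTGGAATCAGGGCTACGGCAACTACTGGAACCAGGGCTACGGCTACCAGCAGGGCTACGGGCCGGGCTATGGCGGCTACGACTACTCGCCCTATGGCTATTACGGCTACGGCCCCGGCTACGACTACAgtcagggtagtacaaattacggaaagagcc
Hnrnpm: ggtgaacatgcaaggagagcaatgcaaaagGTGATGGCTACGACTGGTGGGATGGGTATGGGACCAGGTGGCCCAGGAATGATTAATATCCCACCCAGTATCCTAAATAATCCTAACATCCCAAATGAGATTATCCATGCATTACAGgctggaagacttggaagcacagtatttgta
Srsf3: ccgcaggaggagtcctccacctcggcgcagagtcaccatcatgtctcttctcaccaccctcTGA
Srsf7: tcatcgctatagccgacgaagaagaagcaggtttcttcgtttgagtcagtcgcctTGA

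The *Ptbp1* exon (chr10:79860117-79860194, plus strand) is exon 8 of 14 of its transcript, and its 78 bases code for 26 codons in the linker between the second and the third RNA recognition motifs. The *Hnrnpab* exon (chr11:51601750-51601890, minus strand) is exon 7 of 8, with 141 coding bases. The *Hnrnpm* stretch (chr17:33666530-33666646, minus strand) is a coding part of exon 6 of 16. In the shorter entry, which has 17 exons, this stretch is spliced out as an intron. The *Srsf3* exon (chr17:29039454-29039909, plus strand) is exon 4 of 7, is 456 bases long and has its first stop codon at position 32, counted from 1 at the first base of the exon, which comes after the first 30 bases shown. The *Srsf7* exon (chr17:80204622-80205081, minus strand) is exon 4 of 9, is 460 bases long and has its first stop codon at position 26. The annotation classes both transcripts as targets of nonsense-mediated decay.

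The totals behind the RPKM values, the reads on a transcript scaled by its length and by library depth, were 78172700 (shLuc) and 72702699 (shKdm5b) reads, of which 67.9% and 66.3% lay on genes. A transcript of 1000 bases with 3 reads has 0.0384 and 0.0413 RPKM. *Kdm5b*, the targeted gene, was at 104 RPKM (51378 reads) in shLuc cells and 3.01 RPKM (1377 reads) in shKdm5b cells. The 12 pluripotency markers were all above 1 RPKM in both libraries, with 1 of them higher and 2 lower in shKdm5b cells. *Pou5f1* (log2 ratio −1.76) and *Esrrb* (−0.96) were lower and *Dppa5a* (0.59) was higher, and the summed level was 3219 and 3308 RPKM. Of 13 fibroblast markers, which feeder cells would bring in, 3 and 1 were above 1 RPKM, with a summed level of 8.68 and 8.24 RPKM. Of 9 endoderm markers, 5 and 1 were above 1 RPKM (summed level 29.5 and 4.89 RPKM), and of 9 neural markers 5 were above 1 RPKM in each library (93.9 and 91.5 RPKM). Among the neural markers 1 was higher in shKdm5b cells (*Nes*, log2 ratio 0.83) and 1 lower (*Tubb3*, −1.37). The part of these other cells in the results was not tested, and in bulk RNA fewer cells of a type and less RNA per cell cannot be told apart.

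The splicing regulators were among the more abundant transcripts of these cells, and 39 of the 43 were above 10 RPKM in both libraries. Their summed level was 4146 RPKM in shLuc cells and 5010 RPKM in shKdm5b cells, a ratio of 1.21. They took 882745 reads, 1.66% of the reads on genes, in shLuc cells, and 956777 reads, 1.98%, in shKdm5b cells. The summed level of the SR and Tra2 genes was 1287 RPKM and 1643 RPKM (ratio 1.28), and that of the hnRNP genes was 2520 RPKM and 3075 RPKM (ratio 1.22). The other regulators summed to 339 RPKM and 293 RPKM (ratio 0.864).

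**Figure D1:**
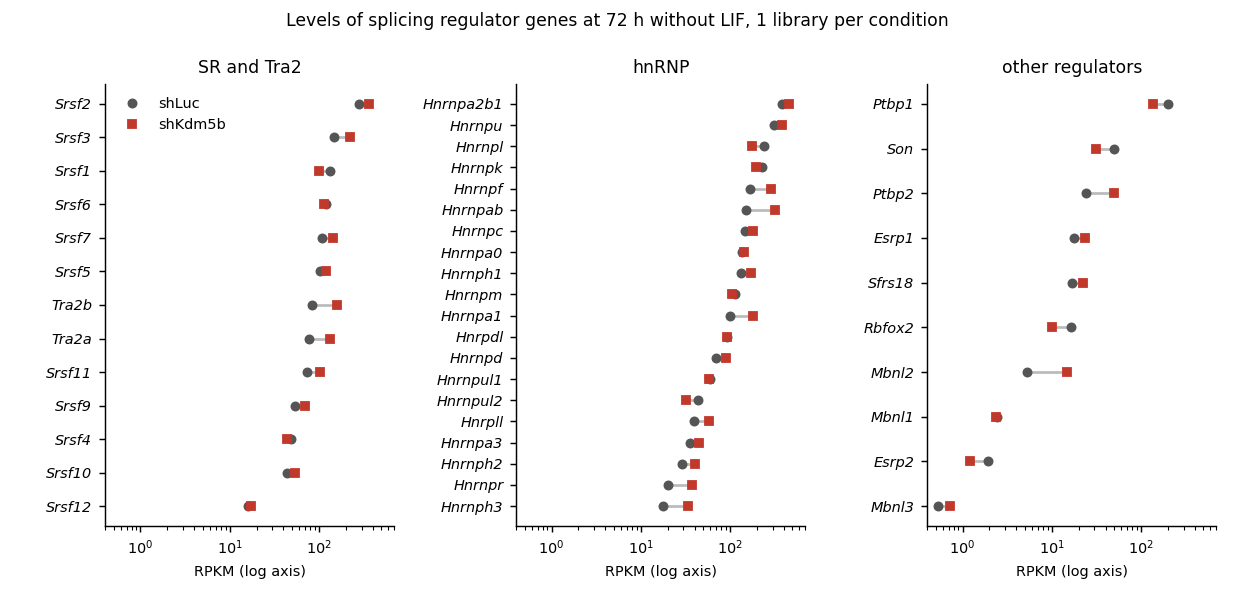
Level of each of the 43 splicing regulators in RPKM (log axis) in shLuc cells (grey circles) and the shKdm5b library (red squares), in 3 panels by family and ordered by level. *Hnrnpa2b1* stood highest in both libraries (386 and 454 RPKM) and *Mbnl3* lowest (0.531 and 0.730 RPKM), and the widest gap is that of *Mbnl2*, from 5.30 to 14.9 RPKM.

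Ratios of shKdm5b to shLuc were taken as log2(RPKM + 0.1), and a gene was counted as different where the fold exceeded 1.5 in either direction and the RPKM exceeded 1 in at least 1 library. By these thresholds 10 regulators were higher in shKdm5b cells, 3 were lower and 30 were within the limits. Of all 11804 genes with an RPKM above 1, 16.3% were higher and 32% were lower, 48.3% in either direction. Of the 42 regulators above 1 RPKM, 23.8% were higher and 7.14% were lower. Among the 4537 genes with an RPKM above 10 in both libraries, the level at which most of these regulators lie, 21.2% were higher and 17.4% lower (38.7% in either direction), which is near the share of regulators that were higher.

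The median log2 ratio of the 43 regulators was 0.35, with a range from −0.72 to 1.47, and 29 of them had a ratio above 0. The median of all genes above 1 RPKM was −0.21. The split of 10 higher and 3 lower depends on how the libraries are scaled to each other: trimmed mean of M-values (TMM) factors, which removed a shift of −0.22 on the log2 scale, gave 17 higher and 0 lower, against 24.1% and 23.2% of all genes. A scaling that set the median log2 ratio to 0 gave 13 higher and 0 lower, against 22% and 25.5%. Of the regulators gained as higher, *Srsf11*, *Hnrnph2* and *Hnrpll* were past the limit with both of these scalings. *Srsf7*, *Srsf9*, *Esrp1* and *Sfrs18* were past it with TMM factors but not with the median set to 0. All values below are on the unscaled RPKM, and the counting intervals at 95% cover counting error only, not the spread between cultures or libraries.

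**Figure D2:**
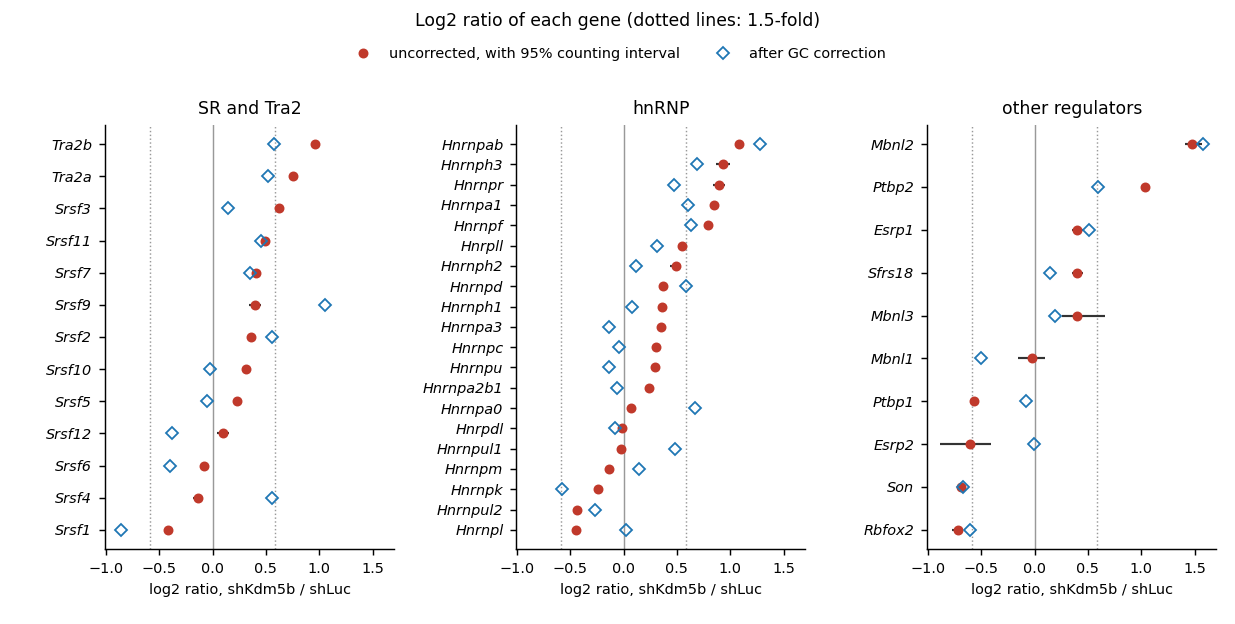
Log2 ratio of shKdm5b to shLuc for each of the 43 regulators (red circles with 95% counting intervals as bars) and the same ratio after correction for the GC content of the transcript (open blue diamonds), in 3 panels by family. Dotted lines mark 1.5-fold in either direction, and *Mbnl2* (1.47 and 1.58 after correction) and *Hnrnpab* (1.08 and 1.28) lie to the right of the line in both forms.

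Among the SR and Tra2 genes, 3 of 13 were higher in shKdm5b cells and 0 were lower, with a median log2 ratio of 0.36. *Tra2b* (chr16:22244549-22266005, minus strand), a sequence-specific activator of GA-rich exonic enhancers, had 82.8 RPKM (13813 reads) in shLuc cells and 161 RPKM (24953 reads) in shKdm5b cells, a log2 ratio of 0.96 (interval 0.93 to 0.99). *Tra2a* (chr6:49243924-49264033, minus strand), its paralogue with the same domain order, went from 77.8 RPKM (11118 reads) to 132 RPKM (17499 reads), a log2 ratio of 0.76 (0.72 to 0.79). *Srsf3* (chr17:29032628-29043373, plus strand), the smallest SR protein, which also links splicing to mRNA export, had 145 RPKM (29383 reads) and 224 RPKM (42111 reads), a log2 ratio of 0.62 (0.60 to 0.65) and thus 1.54-fold, just past the limit. These 3 genes have AT-rich transcripts, and after the correction for GC content each was within the limits, at 0.58, 0.52 and 0.14 in the same order.

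The other 10 SR genes were within 1.5-fold. *Srsf2*, which encodes SC35, the classical marker of nuclear speckles, had the highest level of the family in both libraries: 280 RPKM (41704 reads) against 359 RPKM (49641 reads), a log2 ratio of 0.36. *Srsf11*, a speckle protein that binds exonic enhancers, was at 74.0 RPKM (17738 reads) and 104 RPKM (23148 reads), and *Srsf7*, an adaptor for mRNA export, was at 108 RPKM (18960 reads) and 144 RPKM (23342 reads). Their log2 ratios were 0.49 and 0.40, so both were higher in shKdm5b cells by less than the limit. With TMM factors both were past it, at 0.71 and 0.62. *Srsf9*, a short SR protein related to SRSF1, had 53.5 RPKM (4858 reads) and 70.4 RPKM (5947 reads), also a log2 ratio of 0.40. Its transcript is GC-rich (56.2%), and the corrected ratio was 1.05, past the limit.

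*Srsf1* stood apart within the family. This gene for the founding SR protein had 133 RPKM (52741 reads) in shLuc cells and 99.9 RPKM (36778 reads) in shKdm5b cells, a log2 ratio of −0.42 (−0.43 to −0.40), the lowest of the 13. Its transcript is AT-rich (40.6% GC), and after the correction it was at −0.86 and counted as lower. The ratio of *Srsf1* to its closest relative *Srsf9* was 249% in shLuc cells and 142% in shKdm5b cells, a log2 difference of −0.81 (−0.87 to −0.75) that was −1.91 with the GC correction and −1.35 with GC content and length.

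*Srsf4* and *Srsf6*, relatives with long arginine/serine-rich domains, had small log2 ratios before any correction. *Srsf4* was at 48.5 RPKM (8547 reads) and 44.1 RPKM (7232 reads), and *Srsf6* at 120 RPKM (33304 reads) and 113 RPKM (29224 reads), with log2 ratios of −0.14 and −0.08 that turned positive with TMM factors (0.08 and 0.14). After the GC correction they moved apart, to 0.56 for *Srsf4*, whose transcript is GC-rich (56.8%), and −0.40 for *Srsf6* (42.8%). *Srsf5* had 103 RPKM (12285 reads) and 121 RPKM (13366 reads), a log2 ratio of 0.23. *Srsf10*, a splicing repressor when it is dephosphorylated, had 43.6 RPKM (9253 reads) and 54.1 RPKM (10683 reads), a log2 ratio of 0.31. The gene listed as *Srsf12* had 16.2 RPKM (5130 reads) and 17.3 RPKM (5114 reads), the lowest level of the family in both libraries and a log2 ratio of 0.10. After the GC correction *Srsf5*, *Srsf10* and *Srsf12* were at −0.06, −0.03 and −0.38.

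Among the 20 hnRNP genes, 5 were higher in shKdm5b cells and 0 were lower, with a median log2 ratio of 0.33. *Hnrnpab* (chr11:51600100-51606847, minus strand), which encodes a protein that binds RNA and single-stranded DNA, had 150 RPKM (28250 reads) in shLuc cells and 318 RPKM (55521 reads) in shKdm5b cells. Its log2 ratio of 1.08 (1.06 to 1.10) was the largest of the family and, at 2.11-fold, the only one of the 20 above 2-fold. It rested on a transcript of intermediate GC content (49.9%) and was 1.28 after the correction. The gene shares 144 exonic bases with *Agxt2l2* on the opposite strand (3.62 and 5.98 RPKM), and the library preparation does not mark strand.

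*Hnrnpf* and *Hnrnph3* belong to the group that binds runs of G. *Hnrnpf* (chr6:117900324-117925622, plus strand) had 166 RPKM (28012 reads) and 286 RPKM (44990 reads), a log2 ratio of 0.79 (0.77 to 0.81). *Hnrnph3* (chr10:63014664-63024217, minus strand) had 17.6 RPKM (2977 reads) and 33.5 RPKM (5287 reads), a log2 ratio of 0.93 (0.87 to 0.999). Both stayed past the limit after the GC correction, at 0.64 and 0.69. The other members of the group were within 1.5-fold, *Hnrnph1* with 133 RPKM (23114 reads) and 170 RPKM (27530 reads), and *Hnrnph2* with 29.2 RPKM (5395 reads) and 40.98 RPKM (7043 reads). Set against *Hnrnph1*, *Hnrnph3* was at 13.2% in shLuc cells and 19.7% in shKdm5b cells (log2 difference 0.58, 0.51 to 0.65), while *Hnrnph2* was at 21.98% and 24.1% (0.13, 0.08 to 0.19).

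The A group holds the best known antagonists of SR proteins. *Hnrnpa1* (chr15:103240432-103246692, plus strand), which represses exons through UAG-containing silencers, had 99.7 RPKM (13706 reads) and 179 RPKM (22877 reads), a log2 ratio of 0.84 (0.81 to 0.87). *Hnrnpa2b1*, the most abundant of the 43 genes, had 386 RPKM (49641 reads) and 454 RPKM (54390 reads), a log2 ratio of 0.24. With the longer of its 2 entries this ratio was 0.56, still within the limit. *Hnrnpa3* was at 35.5 RPKM (14331 reads) and 45.3 RPKM (17004 reads), a log2 ratio of 0.35. Before any correction *Hnrnpa1* alone of the A genes was past the limit. Its ratio was 0.60 after the GC correction, still past the limit, and 0.51 after that for GC content and length, within it, while *Hnrnpa2b1* and *Hnrnpa3* were at −0.06 and −0.14 after the GC correction. *Hnrnpa0*, which has a single exon, had 138 RPKM (28820 reads) and 144 RPKM (28067 reads), a log2 ratio of 0.07 that became 0.67 after the GC correction of its GC-rich transcript (55.4%). *Hnrnpa1* has many processed copies in the genome, and how reads that match several places were treated is not given in the sources used here.

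*Hnrnpr* (chr4:136310942-136359447, plus strand), known for mRNA transport in motor axons, had 20.1 RPKM (4212 reads) and 37.5 RPKM (7290 reads), a log2 ratio of 0.89 (0.84 to 0.95) that fell within the limits at 0.47 after the GC correction. *Hnrnpu*, a nuclear scaffold protein and the second most abundant gene of the set, had 308 RPKM (88339 reads) and 378 RPKM (100990 reads), a log2 ratio of 0.30. *Hnrnpc*, which binds runs of U and blocks cryptic exons, had 145 RPKM (31578 reads) and 180 RPKM (36372 reads), a log2 ratio of 0.31. *Hnrnpd*, which encodes AUF1, a regulator of mRNA decay through AU-rich elements, had 70.1 RPKM (37022 reads) and 90.3 RPKM (44356 reads), a log2 ratio of 0.36. These 3 ratios depended on the correction: *Hnrnpu* and *Hnrnpc* were at −0.13 and −0.04 after that for GC content, and *Hnrnpd* was at 0.58, or 0.81 and past the limit with GC content and length.

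The hnRNP genes with a lower level in shKdm5b cells were within the limits too before any correction. *Hnrnpl*, which binds CA repeats, had 241 RPKM (40426 reads) and 178 RPKM (27664 reads), a log2 ratio of −0.44 (−0.46 to −0.42) that was 0.03 after the GC correction. *Hnrpll*, its paralogue and a regulator of exon use in lymphocytes, went the other way, from 39.6 RPKM (9651 reads) to 57.9 RPKM (13113 reads), a log2 ratio of 0.55 and 1.46-fold, just short of the limit. As a share of *Hnrnpl*, *Hnrpll* was 16.4% in shLuc cells and 32.6% in shKdm5b cells, a log2 difference of 0.99 (0.95 to 1.03) that shrank to 0.28 with the GC correction. *Hnrnpk*, a poly(C)-binding protein, had 231 RPKM (35672 reads) and 195 RPKM (28096 reads), a log2 ratio of −0.24. The *Hnrnpk* ratio was −0.58 after the GC correction, and −0.62 and past the limit with GC content and length. *Hnrnpm* had 115 RPKM (21652 reads) and 104 RPKM (18284 reads), a log2 ratio of −0.14 that was 0.08 with TMM factors.

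The U-like genes and *Hnrpdl* complete the family. *Hnrnpul2* had 43.2 RPKM (19347 reads) and 31.9 RPKM (13296 reads), a log2 ratio of −0.44. *Hnrnpul1* had 59.0 RPKM (13244 reads) and 57.8 RPKM (12083 reads), and *Hnrpdl*, a paralogue of *Hnrnpd*, had 93.5 RPKM (20105 reads) and 92.8 RPKM (18556 reads). The intervals of these last genes (−0.06 to 0.01 and −0.04 to 0.02) include 0, so no difference was detectable at this depth, and with TMM factors their log2 ratios were 0.19 and 0.21.

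Of the 10 other regulators, 2 were higher in shKdm5b cells and 3 were lower. *Mbnl2* (chr14:120275669-120431697, plus strand), a muscleblind protein that drives adult splicing patterns as cells differentiate, had 5.30 RPKM (1864 reads) in shLuc cells and 14.9 RPKM (4864 reads) in shKdm5b cells. This was the widest difference of all 43 genes, 2.77-fold, with a log2 ratio of 1.47 (1.41 to 1.57). *Mbnl1*, its paralogue, had 2.43 RPKM (1059 reads) and 2.38 RPKM (967 reads), a log2 ratio of −0.03 (−0.15 to 0.10). *Mbnl2* was thus at 218% of *Mbnl1* in shLuc cells and at 624% in shKdm5b cells, a log2 difference of 1.51 (1.37 to 1.66) that was 2.08 after the GC correction. *Mbnl3* was below 1 RPKM in both libraries, at 0.531 RPKM (360 reads) and 0.730 RPKM (460 reads).

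The polypyrimidine tract proteins went in opposite directions. PTBP1 represses neuronal exons in non-neural cells and keeps PTBP2 low by causing an exon of the *Ptbp2* transcript to be skipped. *Ptbp1* (chr10:79854427-79864771, plus strand) had 203 RPKM (45254 reads) in shLuc cells and 136 RPKM (28317 reads) in shKdm5b cells, a log2 ratio of −0.57 (−0.59 to −0.55) and 1.49-fold, just short of the limit. *Ptbp2* (chr3:119718742-119784466, minus strand) had 24.3 RPKM (6399 reads) and 50.1 RPKM (12243 reads), a log2 ratio of 1.04 (0.997 to 1.08). *Ptbp2* was at 12% of *Ptbp1* in shLuc cells and 36.7% in shKdm5b cells, a log2 difference of 1.61 (1.56 to 1.66). The transcripts differ in GC content, 40.6% for *Ptbp2* and 53.7% for *Ptbp1*, and with the GC correction the log2 difference was 0.67, with *Ptbp1* at −0.08 and *Ptbp2* at 0.59. *Ptbp1* shares 178 and 93 exonic bases with *BC005764* and *E130317F20Rik* on the opposite strand.

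*Rbfox2*, *Son* and *Esrp2* were the 3 lower genes. *Son* (chr16:91647506-91679221, plus strand), a large scaffold of nuclear speckles needed for splicing of weak introns, had 50.2 RPKM (33175 reads) and 31.0 RPKM (19047 reads), a log2 ratio of −0.69 (−0.72 to −0.67). *Rbfox2* (chr15:77078990-77307004, minus strand), a regulator of alternative exons in ES cells, had 16.6 RPKM (8527 reads) and 10.1 RPKM (4807 reads), a log2 ratio of −0.72 (−0.77 to −0.67). Both were past the limit after the GC correction (−0.67 and −0.60) but not after the correction for GC content and length (−0.39 and −0.38), and their transcripts are long, at 8451 and 6562 bases.

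*Esrp1* and *Esrp2* direct epithelial splicing. *Esrp1* had 17.7 RPKM (5332 reads) and 23.3 RPKM (6556 reads), a log2 ratio of 0.40. *Esrp2* (chr8:106130319-106136974, minus strand) had 1.91 RPKM (399 reads) and 1.22 RPKM (237 reads), a log2 ratio of −0.61 (−0.88 to −0.41) and 1.52-fold, just past the limit. *Esrp2* was at 10.8% of *Esrp1* in shLuc cells and 5.23% in shKdm5b cells, a log2 difference of −1.05 (−1.29 to −0.81). This difference was −0.51 with the GC correction and −0.62 with GC content and length. The *Esrp2* call is the least firm of the 13: the ratio was −0.01 after the GC correction, and 6.19% of its exonic bases also lie in *Nfatc3* on the opposite strand (31.5 and 22.5 RPKM). All 11 epithelial markers were above 1 RPKM in both libraries, with 3 higher and 3 lower in shKdm5b cells. Their summed level was 393 and 508 RPKM. *Epcam*, *Krt19* and *Krt18* were higher (log2 ratios 0.98, 0.77 and 0.66) and *Grhl2*, *Krt8* and *Cldn7* lower (−1.57, −1.35 and −0.76). *Sfrs18*, a speckle-associated protein gene, had 17.0 RPKM (6048 reads) and 22.5 RPKM (7432 reads), a log2 ratio of 0.40.

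GC content went along with the ratio across the genome: over 11535 genes above 1 RPKM, Spearman's rho between the GC content of the transcript and the log2 ratio was −0.53. The regulators are AT-rich, with a median GC content of 44.2% (39.7% to 56.8%) against 50.5% for all genes. Over the 43 regulators rho was −0.27, over the 20 hnRNP genes −0.32 and over the 13 SR and Tra2 genes 0.02. These are descriptions across genes of the same pair of libraries, and genes are not independent replicates. After the GC correction, 8 regulators were higher and 3 lower (37% of all genes were past the limits in either direction), with a median of 0.14 (0.35 for the SR and Tra2 genes and 0.13 for the hnRNP genes). The share that was higher was then 19.0% of the regulators above 1 RPKM against 19.1% of all genes, and the share that was lower was 7.14% against 17.9%. Whether library preparation or a difference between the cells underlies the GC relation was not tested.

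**Figure D3:**
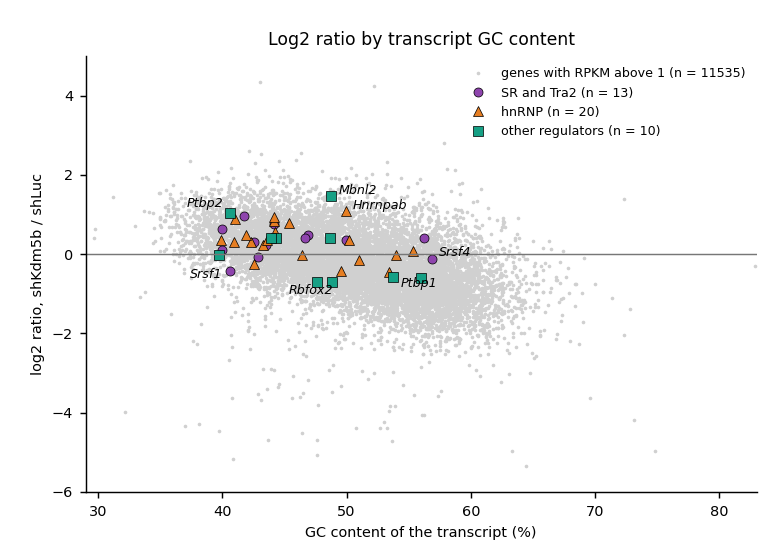
Log2 ratio of shKdm5b to shLuc against the GC content of the transcript in percent, for 11535 genes above 1 RPKM (grey points) and for the SR and Tra2 (purple circles), hnRNP (orange triangles) and other regulators (green squares). Most regulators lie at the AT-rich end, around their median of 44.2% GC, where the grey cloud sits above 0, while *Mbnl2* and *Hnrnpab* stand above it at 48.7% and 49.9% GC and *Srsf1* below it at 40.6%.

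The deposited values also hold information on alternative exons. Where a pair of entries of a gene differ by 1 stretch of at least 50 bases, the reads of the longer entry minus those of the shorter give the reads on that stretch, and 11 such segments in 10 of the regulators, those reported here, had at least 20 reads over both libraries. Each was set against the reads on the shorter entry in the same library, so a difference in the level of the whole gene drops out. The percentages per base given below are not levels of exon inclusion: the *Hnrnpd* exon of 147 bases had 343% in shLuc cells. All 11 had a lower relative count in shKdm5b cells, and 6 of them (54.5%) by more than 1.5-fold. Over the 560 segments of all genes, 70.4% were lower and 44.8% were lower by more than 1.5-fold, with 12.3% higher and 57.1% past this fold in either direction, and with a median log2 difference of −0.46 against −0.70 for the regulators. The regulators' share past the fold limit, over 11 segments, was near that of all genes. Position in the transcript matters here: of other genes' segments in first exons, 66.7% were lower by more than 1.5-fold (median −1.10). In later exons this was 42.8% (median −0.44). Without the first-exon segments, those of *Hnrnpa3* and *Srsf5*, 4 of 9 regulator segments (44.4%) were lower by this fold, with a median of −0.31.

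The *Ptbp1* exon shown above had 634 reads in shLuc cells and 136 in shKdm5b cells. Per base this was 51.3% and 17.6% of the rest of the transcript, a log2 difference of −1.54 (−1.82 to −1.27). This exon, whose skipping is known to weaken the repressor activity of PTBP1, is GC-rich, at 65.4% against 53.7% for the rest. The coding part of exon 1 that distinguishes entries of *Hnrnpa3* (chr2:75659324-75659389, plus strand) had 203 and 67 reads, a log2 difference of −1.85 (−2.27 to −1.44), and is 80.3% GC.

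The exons with early stop codons were lower as well. The *Srsf7* exon had 1314 reads in shLuc cells and 781 in shKdm5b cells, 34.0% and 16.4% per base of the shorter entry, a log2 difference of −1.05 (−1.19 to −0.92). Its GC content, 45.2%, is close to that of the rest (46.4%). Of 299 segments of other genes with a GC content of 40% to 55%, 71.6% were lower, and 44.1% by more than 1.5-fold. Over all 560 segments, Spearman's rho between segment GC content and log2 difference was −0.10. The part of GC content in the segment differences was not tested. The *Srsf3* exon had 1225 and 1036 reads, 23.6% and 13.9% per base, a log2 difference of −0.76 (−0.88 to −0.64), with 51.3% GC against 39.99%. For both genes, the level of the whole transcript was higher in shKdm5b cells while the reads on the exon with the stop codon were fewer. The difference in level was within the limits for *Srsf7* (log2 ratio 0.40), and for *Srsf3* after the GC correction (0.14). Most segments of all genes were lower too (70.4%), and a link between these exons and the level of the genes was not tested. In *Srsf1*, a stretch of 196 bases in the last exon of a transcript, which brings in a stop codon (chr11:88049216-88049411, plus strand) had 425 and 241 reads, a log2 difference of −0.30 (−0.53 to −0.07). It is not a separate exon: the shorter entry, with 4 exons against 3, splices it out.

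The *Hnrnpm* stretch shown above had 699 and 364 reads, 66.6% and 41.1% per base, a log2 difference of −0.70 (−0.89 to −0.51). The *Hnrnpab* exon had 550 and 1013 reads, 33.2% and 31.1% per base, a log2 difference of −0.09 whose interval (−0.25 to 0.06) includes 0. It kept pace with its gene. *Hnrnpd* has a pair of cassette exons, with log2 differences of −0.31 (−0.39 to −0.22) for the exon of 147 bases and −0.13 (−0.37 to 0.10) for the exon of 57 bases. A noncoding part of exon 1 of *Srsf5* had 311 and 200 reads (−0.76, −1.02 to −0.49), and an exon of 54 bases of *Mbnl2* had 7 and 16 reads, too few to compare (−0.19, −1.56 to 1.33).

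**Figure D4:**
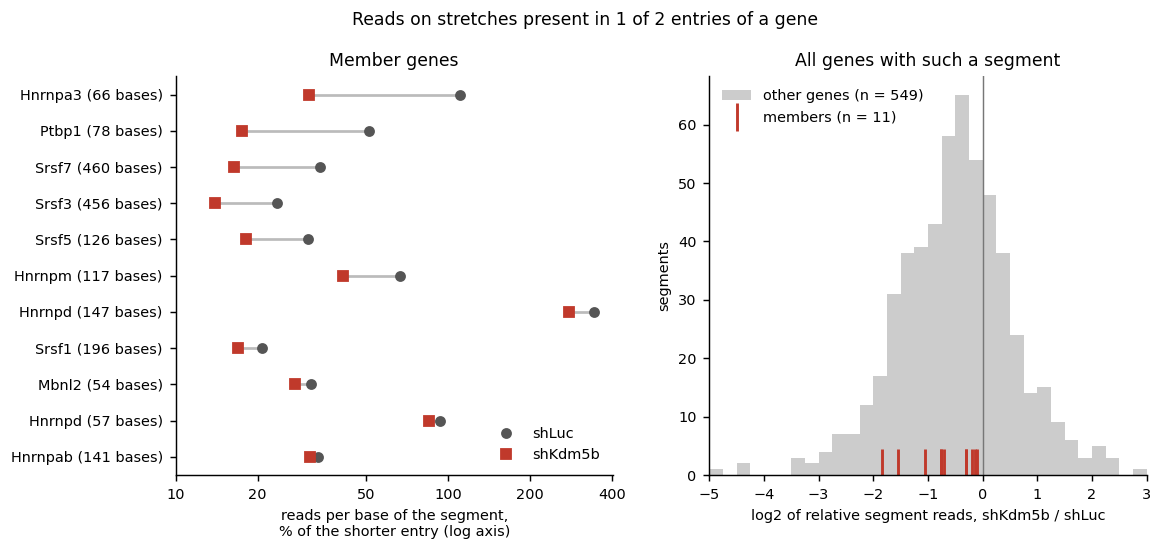
Left, reads per base on each of the 11 segments as a percentage of the reads per base of the shorter entry (log axis), in shLuc cells (grey circles) and the shKdm5b library (red squares); right, histogram of the log2 difference for 549 segments of other genes, with the 11 of the regulators as red ticks. The shKdm5b value is left of the shLuc value for all 11, from 51.3% to 17.6% for *Ptbp1*, and the ticks lie between −1.85 and −0.09, inside the histogram.

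The rest of the splicing machinery was read from 7 lists of other genes, of which 166 were measured and 156 were above 1 RPKM. Of these, 27 (17.3%) were higher in shKdm5b cells and 36 (23.1%) lower, with a median log2 ratio of −0.01, against 16.3% and 32% of all genes. The split turned around with TMM factors (46 higher and 21 lower), with the median ratio set to 0 (40 and 22) and with the GC correction (28 and 21). The kinases, phosphatases and import factors that act on SR proteins had 4 higher and 0 lower of 13, and 2 higher and 2 lower after the GC correction. *Clk1*, a kinase that releases SR proteins from speckles, had 43.3 and 87.5 RPKM (log2 ratio 1.01), *Clk4* had 14.8 and 29.9 RPKM (1.005), and the phosphatase gene *Ppp1cb* had 110 and 196 RPKM (0.84). After the GC correction *Clk4* was past the limit (0.71), and *Clk1* (0.56) and *Ppp1cb* (0.40) were within it.

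The core snRNP lists were mixed. Of 17 genes of the U1 particle and the Sm ring, 6 were higher and 3 lower (7 and 1 after the GC correction), with *Snrpe* from 90.1 to 260 RPKM (log2 ratio 1.53) and *Snrpf* from 23.2 to 64.9 RPKM (1.48) against *Snrpn* from 147 to 72.4 RPKM (−1.03) and *Snrpb* from 120 to 60.7 RPKM (−0.99, or −0.24 after the correction). The U4/U6.U5 tri-snRNP list had the lowest median, −0.44, with 3 higher and 10 lower of 21 (5 and 6 after the GC correction), among them *Ddx23* (53.1 and 20.6 RPKM, −1.36) and *Prpf8*, the central scaffold of the spliceosome (91.8 and 46.0 RPKM, −0.996). Of 18 genes for branch point recognition, 3 were higher and 5 lower (3 and 2 after the correction), with *U2af2*, the polypyrimidine tract subunit, at 93.6 and 38.5 RPKM (−1.28), and of 20 genes of the catalytic steps 1 was higher and 4 lower (3 and 3 after it), with the helicase gene *Dhx38* at 24.6 and 8.63 RPKM (−1.504).

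The list for nonsense-mediated decay, the pathway that removes transcripts with the stop-codon exons above, had 5 higher and 5 lower of 16, and 1 higher and 3 lower after the GC correction, for which *Magoh* had no value. Its central helicase *Upf1* had 46.8 and 15.9 RPKM (log2 ratio −1.55) and *Smg5* had 35.5 and 10.7 RPKM (−1.73), while *Upf3b* had 17.2 and 39.9 RPKM (1.21). Of 52 other RNA-binding regulators above 1 RPKM, 5 were higher and 9 lower (7 and 4 after the correction). *Ybx1*, an abundant mRNA-packaging protein, was at 234 and 530 RPKM (1.18) and *Matr3* at 96.2 and 182 RPKM (0.92), and *Pcbp4* was at 41.98 and 19.4 RPKM (−1.11). Of these, *Ybx1* (1.56) was past the limit after the GC correction, and *Matr3* (0.36) and *Pcbp4* (−0.19) were within it.

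**Figure D5:**
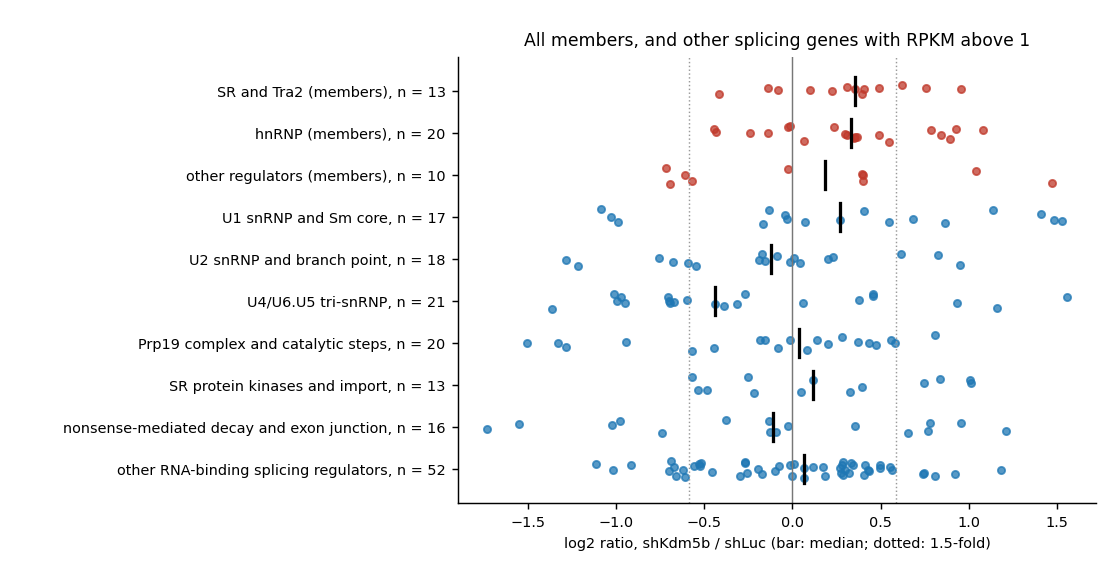
Log2 ratio of shKdm5b to shLuc for each regulator (red, 3 families) and each other splicing gene above 1 RPKM (blue, 7 lists), with a black bar at the median of each group and dotted lines at 1.5-fold. The medians of the SR and Tra2 genes (0.36) and the hnRNP genes (0.33) lie to the right of 0, and that of the U4/U6.U5 tri-snRNP list (−0.44) lies to the left.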

How the data were processed

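For each RefSeq entry the authors deposited an RPKM value, a whole-number read count and the transcript length. RPKM values were computed from the counts by the authors, scaled by transcript length and library depth. CASAVA 1.0, Bowtie 0.12.7 and the build mm8 are named in the submitters' processing notes; the counting program and the treatment of reads with several matches are not given in the sources used here. A further column of small whole numbers and the files of read positions were not used here.

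The 27405 entries were reduced to the entry with the highest mean RPKM per symbol. Ratios, thresholds (1.5-fold, RPKM 1) and the pseudocount of 0.1 are given with the results. With 1 library per condition no test was possible. Counting intervals are exact (95% Clopper-Pearson for genes, conditional odds ratio for pairs and segments), with SciPy 1.17.1. GC content, coordinates and sequences are from GENCODE M21 (GRCm38) through the RefSeq accession (97.1% of symbols), and describe the genes, not the alignment. The GC correction took a lowess curve (fraction 0.3, statsmodels 0.14.6) out of the log2 ratio. As alternatives, reads were scaled with edgeR 4.0.16 (TMM) or DESeq2 1.42.0. The exact test of edgeR was run with TMM factors at assumed dispersions of 0, 0.04 and 0.16 (FDR 0.001), which compares the libraries only. Its counts are of genes that also passed the fold and RPKM thresholds without scaling. The steps were checked on simulated data.

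The genes, lists and alternatives were chosen with earlier results of these data known, and the segment comparison after the files were seen. 1 segment is not reported here and is left out of all segment counts. Every regulator is named. Of the other lists, up to 3 genes per direction with the largest ratios and at least 10 RPKM in the higher library qualified, and some of these are given.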

Additional observations from a re-analysis of the deposited data

How the results depend on the processing

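No paired analysis was possible because there was a single library of each kind, which also means that none could be left out. Of the 43 regulators, 13 were past the thresholds (10 higher, 3 lower). With DESeq2 size factors there were 21 (21 higher, 0 lower) against 24.7% and 22.6% of all genes, with TMM factors 17 higher and 0 lower, and with the median ratio set to 0 again 0 lower. Above 2-fold there were 3 (3 higher, 0 lower). The 3 were 7.14% of the regulators above 1 RPKM, while of all genes 6.27% were higher and 16.5% lower. The exact test of edgeR, run with TMM factors, was applied to genes already past 1.5-fold and RPKM 1, so it could only take genes out. At a dispersion of 0.04 or 0.16 it left 0 of the 13 (0 higher, 0 lower), and at a dispersion of 0 it left all 13. Of all 5702 genes past these thresholds, it left 5543 at a dispersion of 0, 272 at 0.04 and 1 at 0.16. The median log2 ratio of the regulators, 0.35, was 0.31 with a pseudocount of 1, 0.52 with the median ratio set to 0, 0.44 with the 75th percentile made equal, 0.57 with TMM, 0.59 with DESeq2, 0.14 with the GC correction and 0.17 with GC content and length. For the SR and Tra2 genes (0.36) the scalings gave 0.52, 0.44, 0.58 and 0.59 in the same order, and for the hnRNP genes (0.33) 0.50, 0.42, 0.55 and 0.57, with 0.13 and 0.14 for the corrections. The 63 other splicing genes past the thresholds became 24 above 2-fold, 0 at dispersions of 0.04 and 0.16, and 37 with GC content and length. Of all genes, 22.8% were past 2-fold and 32.2% past the limits with GC content and length. The ratio of *Esrp2* turned to 0.032 with GC content and length. *Mbnl2*, *Hnrnpab* and *Ptbp2* were past the thresholds in 15 of the 17 alternatives, *Esrp2* in 6. The causes were not tested.

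The counts on the segments hold for reads of 50 bases. Reads across exon junctions and reads from unspliced RNA could not be set apart there. The counting intervals extended by 0.03 (median) on the log2 scale to each side and do not cover the spread between libraries.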
